A study of Mus musculus with 4 samples.

Results

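Vasopressin and oxytocin spots were capture spots of brain sections that held at least 500 unique transcript molecules (UMIs) and at least 20 UMIs of Avp and Oxt together. These genes encode the 2 hormones that magnocellular neurons of the supraoptic and paraventricular nuclei release from the posterior pituitary. There were 81 such spots among 11064 on 4 sections, and they are called neurosecretory spots here. A spot on these Visium slides is a small region of tissue that can hold several cells or parts of cells, so levels describe a spot and not a neuron, and fewer hormone cells and less hormone RNA per cell cannot be told apart.

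The 4 libraries were 1 section each of the left hemisphere of female C57BL/6 mice, 10 µm thick, cut coronally at a labelled bregma of -2.0 to -2.2 mm after the meninges were removed, from tissue labelled as hippocampal. The aged ethanol library came from mice of 18 to 20 months given 3 g/kg ethanol by gavage, and the aged vehicle library from mice of the same age given water. The young ethanol and young vehicle libraries came from mice of 3 to 4 months treated in the same ways. All were gavaged 10 times, every other day over 18 days, and tissue was taken 18 h after the last gavage. Each age and gavage had 1 library, so no difference between libraries has a replicate. Total UMIs per library were between 45995677 and 58305713, and median UMIs per spot between 15660 and 19077. Pairs of libraries shared 1538 to 2377 spot barcodes, and 0 among the neurosecretory spots.

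Magnocellular neurons make vasopressin, which acts on the kidney to retain water and on vessels to constrict them, and oxytocin, which drives milk ejection and uterine contraction. Each hormone is cut from a precursor that also holds a neurophysin, packed in dense core vesicles and carried down long axons. The transcription factors Otp, Sim1 and Pou3f2 are needed for these neurons to form in the mouse.

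The 2 genes lie side by side on mouse chromosome 2 (GRCm38.p6), Oxt on the plus strand at chr2:130574519-130577054 and Avp on the minus strand at chr2:130580620-130582588. Their 3′ ends face each other across 3565 bases, with 0 annotated genes between them. The promoter windows of both are printed because all spots were chosen by these genes, and they come from RefSeq on that build. The Avp window is chr2:130582539-130582838 on the minus strand. The Oxt window is chr2:130575919-130576218 on the plus strand and lies inside the annotated Oxt span, which begins upstream of it. Capitals mark the TATA-like box CATAAA, found in both promoters. In the Avp promoter they also mark an E-box, whose letters are CACGTG, a type of site that clock and other bHLH factors can bind. In the Oxt promoter they mark a site of the nuclear receptor family, AGGTCA on the printed strand once and on the opposite strand once.
Avp promoter: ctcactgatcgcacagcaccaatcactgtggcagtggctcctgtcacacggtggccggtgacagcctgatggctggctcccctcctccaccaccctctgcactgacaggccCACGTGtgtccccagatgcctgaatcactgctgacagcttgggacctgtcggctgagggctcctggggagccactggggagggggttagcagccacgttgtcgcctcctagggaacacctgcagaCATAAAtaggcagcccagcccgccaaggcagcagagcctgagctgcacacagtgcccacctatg
Oxt promoter: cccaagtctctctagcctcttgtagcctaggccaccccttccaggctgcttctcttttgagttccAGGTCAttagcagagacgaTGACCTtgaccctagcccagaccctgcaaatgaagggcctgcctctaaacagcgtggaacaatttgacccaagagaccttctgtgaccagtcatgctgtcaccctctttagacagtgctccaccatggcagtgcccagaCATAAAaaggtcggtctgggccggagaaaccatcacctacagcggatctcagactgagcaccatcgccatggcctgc
The TATA-like box began at position -14 from the start site in Avp and at -27 in Oxt. The E-box began at -139 in Avp, and the nuclear receptor sites of Oxt began at -185 on the gene's strand and at -166 on the opposite one. The cAMP response motif TGACG was searched on both strands and is not among the letters of either window. Among 32851 mouse promoter windows of this kind, searched on both strands, the TATA-like box was in 11.9%, the nuclear receptor site in 16.3%, the E-box in 7.15% and the cAMP response motif in 20.8%. The longest run that both promoters share on their own strands is CAGACATAAA, 10 bases that begin at -18 in Avp and -31 in Oxt and overlap the TATA-like box. It was in 22 promoter windows, or 0.0670%. These matches describe the letters, and binding was not tested.

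The aged ethanol section held 37 neurosecretory spots of 2642, or 1.40% (95% exact binomial interval 0.988% to 1.93%). The aged vehicle section held 5 of 2703, or 0.185% (0.0601% to 0.431%). On the young ethanol section 39 of 2881 spots qualified, or 1.35% (0.964% to 1.85%), and on the young vehicle section 0 of 2716, a limit of 0.110% by 3 spots and of 0.136% by the exact interval. These values chose the spots and are given as a description, with intervals that cover counting error only. The richest spot of the young vehicle section had 8 UMIs of both hormones. Over whole sections, Avp had 9650 UMIs in aged ethanol, 676 in aged vehicle, 7372 in young ethanol and 107 in young vehicle, and Oxt had 4853, 233, 1187 and 18 in the same order. The spots were thus almost all on the ethanol sections, and the plane of section, the gavage and the library cannot be told apart.

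Most hormone RNA of the 3 sections with such spots lay inside them. They held 94.6% of the Avp UMIs of the aged ethanol section, 82.7% in aged vehicle and 83.1% in young ethanol, and 86.0%, 64.4% and 74.6% of the Oxt UMIs in that order. The threshold cut through a continuous range. Just inside it, with 20 to 24 UMIs, were 4 spots in aged ethanol, 1 in aged vehicle and 6 in young ethanol, and just outside, with 15 to 19 UMIs, were 13, 1 and 11. For reference, spots rich in Slc17a7, a cortical and hippocampal glutamate transporter gene, carried at least 1 Avp or Oxt UMI in 14.6% of 570 spots in aged ethanol, 3.32% of 723 in aged vehicle and 18.0% of 690 in young ethanol. In young vehicle, with 0 neurosecretory spots, it was 3.80% of 816. Whether these UMIs were free RNA was not tested. The highest sum among the Slc17a7-rich spots of young ethanol was 5 UMIs, at a median of 30955 UMIs per spot, against 10931 per neurosecretory spot there.

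Avp and Oxt together took 0.101% to 10.0% of all UMIs of a neurosecretory spot. Their sum was between 20 and 2749 UMIs with a median of 46, while total UMIs were between 1449 and 32027 with a median of 12786. Avp was between 0 and 1993 UMIs with a median of 30, and Oxt between 0 and 1013 with a median of 16. The richest spot by sum was in aged ethanol, with 1784 Avp and 965 Oxt UMIs. The richest by Avp was in young ethanol, with 1993 Avp and 15 Oxt UMIs among 20077 in all. The richest by Oxt was in aged ethanol, with 1013 Oxt and 108 Avp UMIs. The 5 spots of aged vehicle had Avp and Oxt UMIs of 404 and 0, 106 and 0, 30 and 0, 19 and 1, and 0 and 149, so in each of them the lesser hormone had at most 1 UMI.

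**Figure D1:**
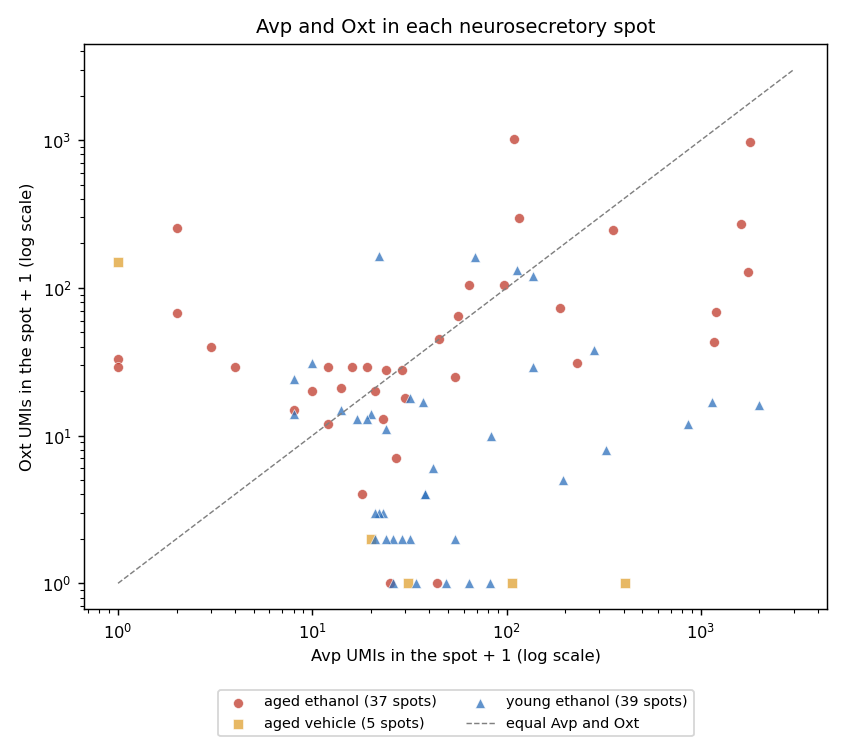
Avp UMIs (horizontal) and Oxt UMIs (vertical) of each of the 81 neurosecretory spots, 1 added to each and both axes on a log scale, with points coloured by library and a dashed line of equal counts. Spots of aged ethanol lie on both sides of the line, and those of young ethanol mostly below it, on the Avp side.

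Spots differed in which hormone led. Avp exceeded Oxt in 53 spots, Oxt exceeded Avp in 26 and they were equal in 2. Oxt led in 18 spots and Avp in 17 of aged ethanol, against 1 and 4 in aged vehicle and 7 and 32 in young ethanol. Both hormones reached 20 UMIs in 23 spots, of which 17 were in aged ethanol, 0 in aged vehicle and 6 in young ethanol. Avp was at least 10 times Oxt in 30 spots and Oxt at least 10 times Avp in 6. The scatter of Avp against Oxt by spot shows these counts as points far from the line of equal counts.

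Other genes were then counted by spot. The share of other hypothalamic spots with a UMI of these genes was not counted, so the counts describe the neurosecretory spots and do not set them apart. Otp had a UMI in 54 of the 81 spots, Sim1 and Pou3f2 in 18 each, Foxp1 in 28 and Caprin2, an RNA binding gene described in magnocellular neurons, in 16. Pdyn, the prodynorphin gene that vasopressin neurons also express, had a UMI in 51 spots and Th, which encodes tyrosine hydroxylase, in 36. Vip, a marker of the suprachiasmatic nucleus, had 0 UMIs in all 81, while other genes of that nucleus were present, as given with the comparison against all other spots. Some spots also held RNA of neighbouring hypothalamic neurons: 20 had at least 5 UMIs of Pomc, the arcuate precursor of melanocortins, of which 18 were in aged ethanol and 2 in young ethanol. At least 20 UMIs of Hcrt and Pmch together, the genes of orexin and melanin-concentrating hormone (MCH), were found in 12 spots, all in aged ethanol. Some of these 12 were also among the 20 spots with Pomc.

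To ask what sets these spots apart within the hypothalamus, their UMIs were summed per library and compared with sums over other hypothalamic spots, chosen by at least 10 UMIs of Baiap3, Dlk1, Gabrq, Irs4 and Arhgap36 together. There were 84, 123 and 103 such spots in aged ethanol, aged vehicle and young ethanol, and the young vehicle library took no part. Of the neurosecretory spots themselves, 26 of 81 reached that cut, 17 of 37, 1 of 5 and 8 of 39 in the same order. The sets are thus not matched for these genes or for UMIs per spot, and the part of this in the differences was not tested. edgeR's quasi-likelihood test with the library as a block and Benjamini-Hochberg adjustment over 10786 genes called 189 genes higher (1.75%) and 70 lower (0.649%) in neurosecretory spots, 2.4% in all. Of these, 152 and 68 went the same way in all 3 libraries. Adjusted p-values of single genes are from this test unless another is named, and levels are counts per 1e6 UMIs of the spot set (CPM).

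Some transcription factor genes of the magnocellular lineage were higher in neurosecretory spots. Of the 9 on the list, 6 could be tested, 4 rose and 0 fell, with a median log2 fold change of 1.65 beside -0.03 over all genes. Sim1 and Pou3f2 passed the filter on low counts only by their levels in the neurosecretory spots, where they were high. The counts and the median of this list therefore lean towards higher genes and are given as a description. Otp, a homeobox gene, had 104, 8 and 50 UMIs in the neurosecretory spots of aged ethanol, aged vehicle and young ethanol, or 152, 166 and 109 CPM, against 57.1, 75.2 and 32.0 CPM in the other hypothalamic spots of those libraries. All 3 libraries were higher in the neurosecretory spots, by a fitted log2 fold change of 1.56 ± 0.23 (SE, adjusted p = 6.1e-09). Pou3f2, a POU factor gene known as Brn2, had 17, 5 and 11 UMIs, or 24.9, 104 and 24.0 CPM, against 5.24, 4.39 and 3.79 CPM. It rose by 2.96 ± 0.55 on the log2 scale (adjusted p = 1.7e-05), and no neurosecretory value lay within the range of the other spots. Sim1, a bHLH-PAS factor gene, had 16, 0 and 11 UMIs against 12, 9 and 4 UMIs, and rose by 2.52 ± 0.62 (adjusted p = 0.0039) with no UMI in the 5 aged vehicle spots. Foxp1, a forkhead factor gene, rose by 1.74 ± 0.42 (adjusted p = 0.0029), on 19, 1 and 18 UMIs against 20, 53 and 19.

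Arnt2, the dimer partner of Sim1, had 113, 62.4 and 93.6 CPM against 115, 106 and 112 CPM and a log2 fold change of -0.10 ± 0.24 (adjusted p = 0.93). Leaving out 1 library of the 3 left the Pou3f2 call in place (adjusted p = 0.047 without young ethanol, 0.00017 without aged vehicle and 0.03 without aged ethanol). The calls of Otp and Foxp1 were lost without young ethanol (adjusted p = 0.55 and 1) or without aged ethanol (0.11 and 0.63), and Sim1 could then not be tested.

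**Figure D2:**
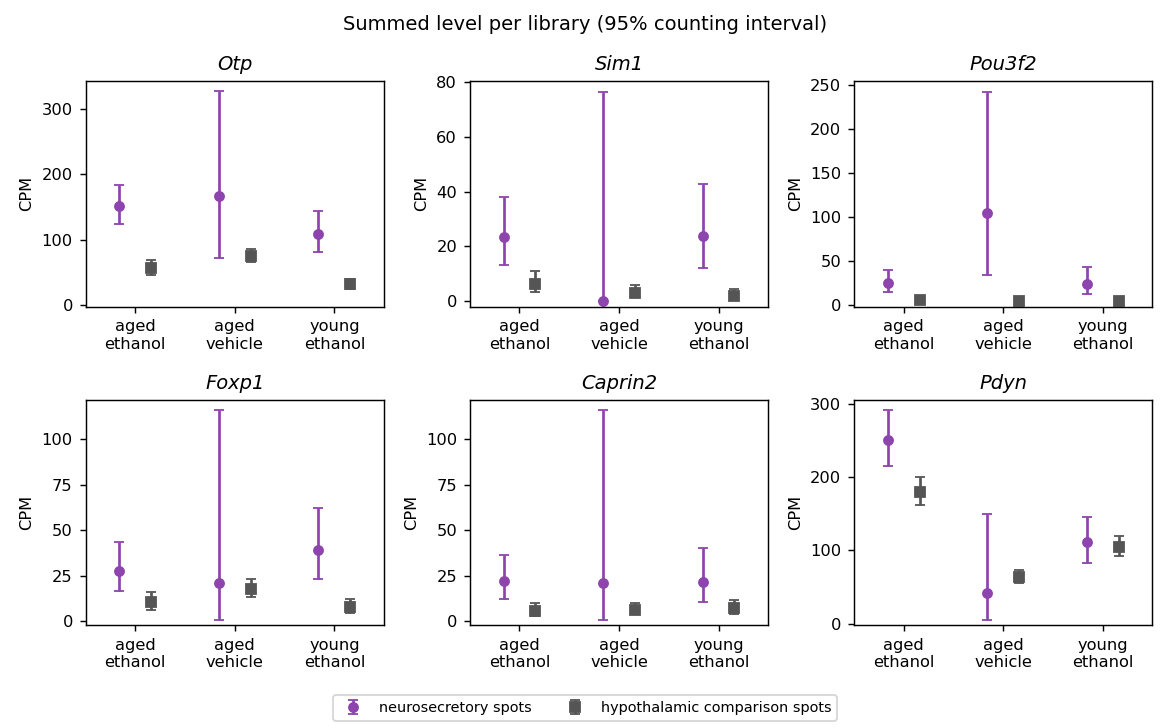
Summed level in CPM, with exact 95% counting intervals, of 6 genes in neurosecretory spots (circles) and other hypothalamic spots (squares) of the aged ethanol, aged vehicle and young ethanol libraries. Otp and Pou3f2 are higher in neurosecretory spots of all 3 libraries, and the wide bars of aged vehicle rest on 5 spots.

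Among the 13 peptide and RNA binding genes described in magnocellular neurons, 1 rose and 2 fell, with a median log2 fold change of 0.15. Caprin2 rose by 1.83 ± 0.54 (adjusted p = 0.037), on 15, 1 and 10 UMIs in the neurosecretory spots of aged ethanol, aged vehicle and young ethanol against 11, 19 and 17 in the other hypothalamic spots. Caprin2 too passed the filter on low counts only by its level in the neurosecretory spots. Cck, the cholecystokinin gene, fell by 1.24 ± 0.27 (adjusted p = 0.00059), with 46.8, 20.8 and 240 CPM against 267, 307 and 237 CPM. The young ethanol library did not share that difference. Penk, the proenkephalin gene, fell by 0.96 ± 0.26 (adjusted p = 0.013), with 121, 0 and 42 UMIs against 503, 1089 and 400. Pdyn did not pass the test, at 251, 41.6 and 111 CPM against 180, 63.8 and 105 CPM (log2 fold change 0.33 ± 0.24, adjusted p = 0.68). Th had a log2 fold change of 0.77 ± 0.27 (adjusted p = 0.13), Trh, the thyrotropin-releasing hormone gene, one of 0.55 ± 0.25 (0.33), and Gal, the galanin gene, one of -0.04 ± 0.24 (0.98). The calls of Caprin2 and Penk were lost without young ethanol (adjusted p = 1 and 0.42), and those of Caprin2, Penk and Cck without aged ethanol (1, 0.098 and 1).

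Genes of hormone processing and secretion did not stand out against other hypothalamic spots. Of 11 processing enzymes tested, Pcsk1, a prohormone convertase gene, rose by 0.86 ± 0.26 (adjusted p = 0.039), with 110, 0 and 65.3 CPM in the neurosecretory spots of aged ethanol, aged vehicle and young ethanol, against 63.9, 25.3 and 32.4 CPM. Of 17 granin and dense core vesicle genes, 0 were called in either direction and the median log2 fold change was -0.24, and Scg2, the secretogranin II gene, had 740, 166 and 579 CPM against 1047, 668 and 803 CPM (adjusted p = 0.12). Of 23 genes of folding and stress in the endoplasmic reticulum, 0 were called and the median was 0.21, and the chaperone gene Hspa5 had 472, 333 and 303 CPM against 334, 276 and 300 CPM (adjusted p = 0.69). None of the 8 osmosensing and ion channel genes tested, none of the 6 neurotransmitter genes and neither of the 2 receptor and peptidase genes was called, and DESeq2 called none of them either. At an unadjusted p under 0.05, edgeR held 3 of the 17 granin, 3 of the 23 endoplasmic reticulum, 5 of the 8 channel (4 lower), 5 of the 6 neurotransmitter (4 lower) and 1 of the 2 receptor genes (lower), and 1269 of all genes. The median log2 fold changes of these last 3 lists were -0.58, -0.75 and -0.58. Oxtr, the oxytocin receptor gene, had 3, 0 and 3 UMIs in the neurosecretory spots. Of 12 immediate early genes, Egr1 fell by 1.10 ± 0.31 (adjusted p = 0.023), with 24, 0 and 11 UMIs, and Fos had a log2 fold change of -0.07 ± 0.43 (adjusted p = 0.98). The calls of Pcsk1 and Egr1 were lost without young ethanol (adjusted p = 1 each) or without aged ethanol (1 and 0.84).

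Of the genes of other hypothalamic neurons, 1 of 6 releasing hormones rose and 1 fell, 0 of 8 suprachiasmatic genes rose and 1 fell, 1 of 6 arcuate genes rose and 1 fell, and 0 of 6 lateral hypothalamic genes rose and 2 fell. Tac2, the neurokinin B gene, fell by 3.23 ± 0.33 (adjusted p = 2.3e-19), with 30.7, 0 and 6.53 CPM in the neurosecretory spots of aged ethanol, aged vehicle and young ethanol, against 288, 57.4 and 69.0 CPM. Sst, the somatostatin gene, fell by 1.21 ± 0.25 (adjusted p = 0.00032), with 425, 104 and 383 CPM against 849, 908 and 674 CPM. Pmch fell by 3.01 ± 0.30 (adjusted p = 1.2e-20) and Hcrt by 2.63 ± 0.34 (1.2e-11). Vip, with 0 UMIs in the neurosecretory spots against 100 in the others, was at least 5.48-fold lower by a floor of 3 UMIs over the whole set. Pomc rose by 1.16 ± 0.25 (adjusted p = 0.00056), with 341, 0 and 65 UMIs against 261, 602 and 133, and 44 of the 65 in young ethanol came from 1 spot. That call was lost without either ethanol library (adjusted p = 1 each), and those of Hcrt and Gnrh1 without young ethanol (1 and 0.18). Gnrh1, the gonadotropin-releasing hormone gene, rose by 3.94 ± 0.58 (adjusted p = 7.5e-09) on 17, 0 and 18 UMIs against 0, 35 and 1. Of those, 12 of the 17 and 16 of the 18 came from 1 spot each. Gnrh1 passed the filter on low counts only by its level in the neurosecretory spots, so its call is given as a description.

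**Figure D3:**
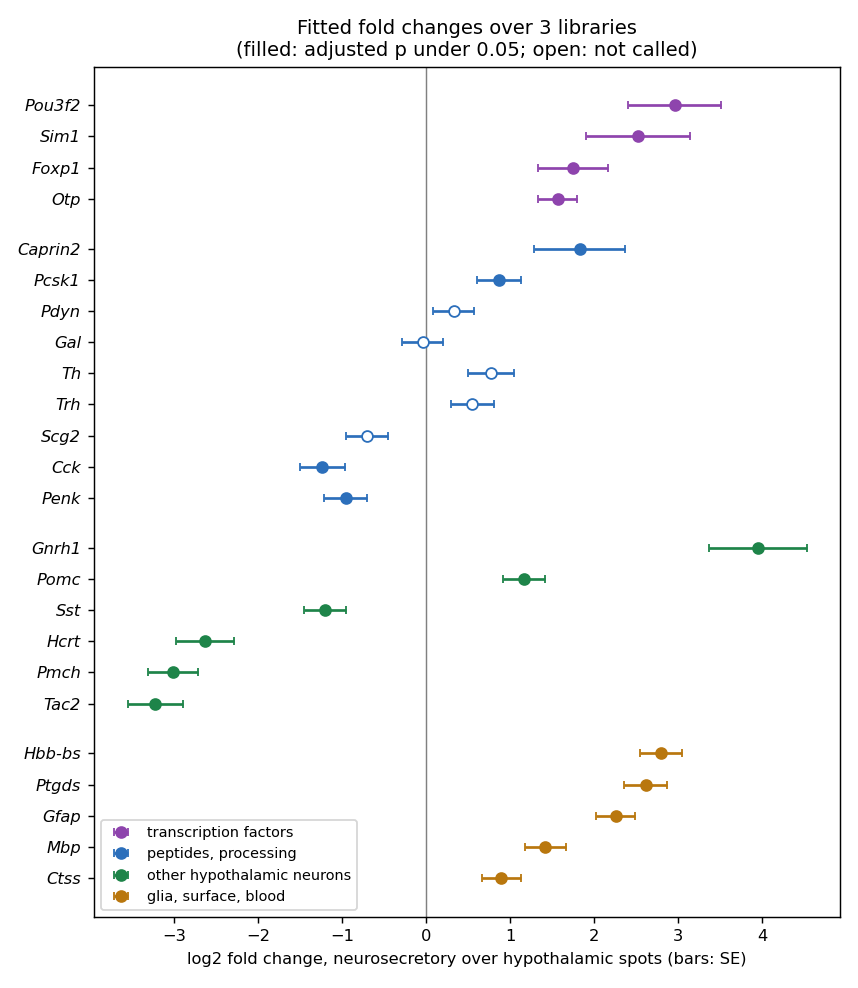
Fitted log2 fold change with its standard error (horizontal) of 24 genes in 4 groups (vertical), neurosecretory over other hypothalamic spots of 3 libraries, filled where the adjusted p is under 0.05. The lineage transcription factors plotted are the 4 called higher of the 6 tested. They and genes of glia, brain surface and blood lie on the higher side. Tac2, Pmch, Hcrt, Sst, Cck and Penk lie on the lower side.

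Markers of glia, brain surface and blood moved with these calls, and their part in them was not tested. All 9 oligodendrocyte markers rose (median log2 fold change 1.27, with 0 of the 9 called by DESeq2), and their summed level was 8517, 34483 and 5164 CPM in the neurosecretory spots of aged ethanol, aged vehicle and young ethanol, against 5624, 2359 and 4320 CPM. Without aged vehicle, the log2 fold change of the myelin gene Mbp was 0.49 (adjusted p = 0.15). Of 9 astrocyte markers 5 rose, led by Gfap, the astrocyte filament gene, at 2.26 ± 0.23 (adjusted p = 3.5e-19). Of 5 meningeal markers tested 3 rose, led by Igf2, the insulin-like growth factor 2 gene, at 3.22 ± 0.34 (adjusted p = 3.2e-18). Ptgds, a prostaglandin synthase gene of the meninges, rose by 2.61 ± 0.25 (adjusted p = 6.0e-22) and had 1405, 8460 and 6986 CPM against 743, 695 and 833 CPM. The summed meningeal list was at 1537, 8771 and 7124 CPM against 768, 731 and 856 CPM, with 0, 2 and 0 of its 7 genes at 0 in the neurosecretory spots.

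Haemoglobin genes rose as well, Hbb-bs by 2.80 ± 0.25 (adjusted p = 2.6e-26), with 1939, 3242 and 2744 CPM in the neurosecretory spots of aged ethanol, aged vehicle and young ethanol against 260, 334 and 636 CPM. The pituitary hormone genes Prl and Gh rose by 4.46 ± 0.68 and 4.58 ± 0.84 (adjusted p = 3.1e-08 and 1.2e-05) on 29, 7 and 0 and on 21, 4 and 0 UMIs. Of the fits without 1 library, both could be tested only in that without young ethanol (adjusted p = 1.2e-06 and 0.00075). Prl and Gh passed the filter on low counts only by their levels in the neurosecretory spots, so their calls are given as a description. Lars2, Gm42418 and AY036118, whose counts can hold ribosomal RNA, took 0.499%, 1.24% and 1.06% of UMIs against 0.371%, 0.270% and 0.349%, and median UMIs per spot were 21135, 9876 and 10931 against 22596.5, 22529 and 22510. Without the 3 spots of at least 200 Ptgds UMIs, which leaves the 2 ethanol libraries, Ptgds was still higher (log2 fold change 1.06) and Otp and Sim1 were at 1.67 and 2.69.

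Orexin and MCH neurons of the lateral hypothalamus gave a second hypothalamic set, spots with at least 20 UMIs of Hcrt and Pmch (129, 27 and 161 spots in aged ethanol, aged vehicle and young ethanol). Here 67 genes were higher (0.825%) and 19 lower (0.234%) of 8126. Of 5 lineage transcription factors tested 3 rose: Otp by 1.72 ± 0.22 (adjusted p = 1.2e-06), with 152, 166 and 109 CPM against 52.2, 31.4 and 33.2 CPM, Sim1 by 2.50 ± 0.55 (0.01) and Pou3f2 by 1.93 ± 0.45 (0.014). The limit set by the filter on low counts holds for Sim1 and Pou3f2 here as well. Pdyn rose by 0.87 ± 0.21 (adjusted p = 0.02), with 251, 41.6 and 111 CPM against 108, 14.3 and 91.7 CPM. The aged vehicle level rests on 1 Pdyn UMI in each of 2 spots, and the difference was smallest in young ethanol. Cck, lower than in other hypothalamic spots, was higher than in orexin and MCH spots by 1.08 ± 0.25 (adjusted p = 0.015). Cartpt, a peptide gene of MCH neurons, fell by 1.76 ± 0.34 (adjusted p = 0.0016), and Slc32a1, the vesicular GABA transporter gene, by 0.91 ± 0.24 (0.043).

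No granin or dense core vesicle gene of 17 and no endoplasmic reticulum gene of 22 was called against orexin and MCH spots, nor any by DESeq2, while 5 and 2 of them had an unadjusted p under 0.05. None of 9 oligodendrocyte markers was called in this comparison by either tool (median log2 fold change 0.59, 6 at an unadjusted p under 0.05), while Gfap rose by 2.04 ± 0.23 (adjusted p = 1.3e-07) and Ptgds by 2.48 ± 0.36 (1.9e-05). The Otp call was lost without young ethanol (adjusted p = 0.15) or without aged ethanol (0.063), and so were those of Pdyn (0.91 and 1) and Slc32a1 (1 each). The calls of Cck, Cartpt and Pou3f2 were lost without young ethanol (adjusted p = 1, 0.64 and 0.17) or without aged vehicle (0.065, 0.083 and 0.082), that of Cck also without aged ethanol (0.5) and that of Ptgds without young ethanol (0.15). Sim1 could be tested only without aged vehicle (adjusted p = 0.026). The comparisons share the neurosecretory spots, so their values stand side by side and are not independent.

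Against every other spot of the 3 sections, neurosecretory spots had higher levels of hypothalamic genes and lower levels of cortical ones. The fit called 487 genes higher (3.12%) and 913 lower (5.85%) of 15618, 8.96% in all, of which 273 and 868 went the same way in all 3 libraries. Otp rose by 4.63 ± 0.26 (adjusted p = 5.0e-67), with 152, 166 and 109 CPM in the neurosecretory spots of aged ethanol, aged vehicle and young ethanol, against 5.44, 6.40 and 4.65 CPM. Sim1 rose by 4.72 ± 0.50 (5.1e-18). Of the 9 lineage factors, Pou3f2 also rose, by 1.98 ± 0.40 (adjusted p = 3.5e-05, and 0.056 without aged ethanol). Fezf2 fell by 1.96 ± 0.54 (adjusted p = 0.0052, a call lost without either ethanol library). Of 16 genes of the wider hypothalamus 13 rose and 0 fell, while all 7 cortical markers fell, Slc17a7 by 4.89 ± 0.37 (adjusted p = 9.2e-37). Of 10 suprachiasmatic genes 4 rose (Prok2, Six6, Syt10 and Scn9a) and 4 fell (Vip, Rorb, Rgs16 and Rora), with a median log2 fold change of -0.53.

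Peptide genes described in magnocellular neurons were higher than in the sections at large, with 8 of 13 up and 3 down. Trh had 300, 0 and 224 CPM in the neurosecretory spots of aged ethanol, aged vehicle and young ethanol, against 18.0, 2.81 and 19.7 CPM (log2 fold change 3.72 ± 0.23, adjusted p = 1.4e-55). Gal rose by 3.14 ± 0.29 (adjusted p = 2.7e-24), Th by 3.51 ± 0.32 (1.7e-24) and Pdyn by 2.11 ± 0.22 (4.2e-18). The calls of Th and Pdyn were lost without aged ethanol (adjusted p = 0.069 and 0.2). Cck fell by 3.36 ± 0.32 (adjusted p = 5.3e-23), and was lower in all 3 libraries.

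Of 11 processing enzymes, 3 rose and 2 fell. Pcsk1 rose by 2.00 ± 0.26 (adjusted p = 4.9e-12), and so did Qpct, the glutaminyl cyclase gene (1.63 ± 0.31, 5.4e-06), and Pam, the peptide amidating enzyme gene (0.98 ± 0.22, 0.00034). The convertase genes Furin and Pcsk2 fell by 1.84 ± 0.58 and 1.16 ± 0.26 (adjusted p = 0.022 and 0.00036). Of 18 granin and dense core vesicle genes 4 rose and 1 fell, with Resp18, a secretory granule gene, at 1.54 ± 0.27 (adjusted p = 8.5e-07) and Scg2 at 1.04 ± 0.27 (0.0019). Of 24 endoplasmic reticulum genes, Ssr1 and Ssr4, which encode translocon-associated proteins, rose by 0.84 ± 0.23 and 0.80 ± 0.23 (adjusted p = 0.0052 and 0.0097). Of 13 immediate early genes 7 fell and 0 rose, Arc by 3.60 ± 0.48 and Egr1 by 2.81 ± 0.31 (adjusted p = 1.2e-11 and 4.8e-17). Oligodendrocyte markers gave 0 calls of 9 here (2 at an unadjusted p under 0.05, and 0 by DESeq2), and meningeal markers rose in 4 of 7. Without young ethanol or without aged ethanol, the calls of Qpct, Furin, Pcsk2, Resp18, Scg2, Ssr1 and Ssr4 were lost, and that of Pcsk1 without aged ethanol (adjusted p = 0.36).

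The spots were then ordered by their summed Avp and Oxt, in bands of 20 to 49, 50 to 199 and at least 200 UMIs, with 18, 8 and 11 spots in aged ethanol and 23, 8 and 8 in young ethanol. Spots with 1 to 4 and 5 to 19 UMIs were added for reference. Otp was 12.1, 71.1, 79.1, 137 and 248 CPM from the lowest to the highest of the 5 bands in aged ethanol, and 12.9, 55.4, 64.3, 149 and 223 CPM in young ethanol. The Otp value was thus higher in each next band of both libraries. Its step into the band of 20 to 49 was small and rests on 22 Otp UMIs in aged ethanol and 19 in young ethanol. Sim1 was 1.08, 7.99, 0, 11.9 and 58.9 CPM in aged ethanol and 3.86, 5.75, 10.1, 27.1 and 66.8 CPM in young ethanol. Pou3f2 and Caprin2 had their highest level in the top band of both libraries, at 58.9 CPM each in aged ethanol and 89.0 and 77.9 CPM in young ethanol.

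Pdyn was 39.6, 111, 115, 95.1 and 522 CPM from low to high in aged ethanol and 48.0, 53.9, 54.1, 109 and 301 CPM in young ethanol, so its level stood apart in the top band. Th had 227 CPM in the top band of aged ethanol and 122 CPM in that of young ethanol, against 32.3 and 6.76 CPM in the band of 20 to 49 UMIs. Pcsk1 had 240 and 134 CPM in the top band of those libraries, against 43.1 and 47.3 CPM in the band of 20 to 49. Of the 20 spots in the top band over all libraries, Pdyn had a UMI in 20, Otp and Th in 18 each and Caprin2 in 11. The bands are ranges of 1 measure and not cell types.

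**Figure D4:**
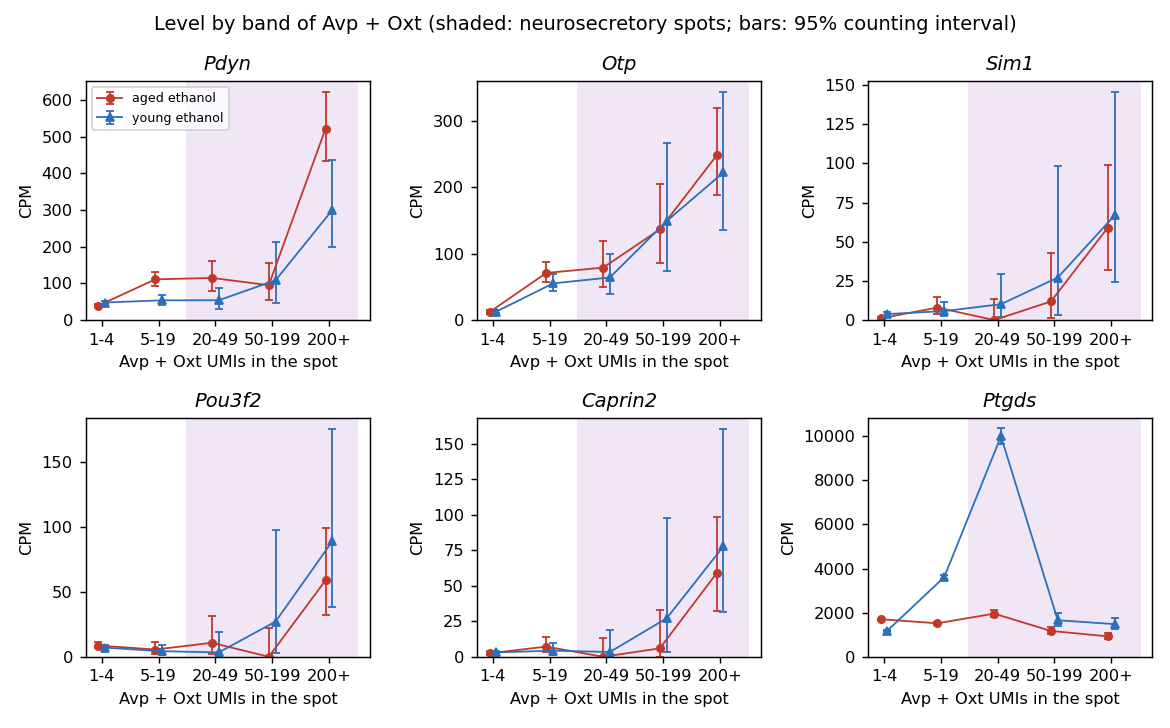
Level in CPM with exact 95% counting intervals of 6 genes (vertical) in 5 bands of summed Avp and Oxt UMIs per spot (horizontal), for aged ethanol (circles) and young ethanol (triangles), with the bands of neurosecretory spots shaded. Pdyn, Otp, Sim1, Pou3f2 and Caprin2 are highest in the band of at least 200 UMIs, and Ptgds is highest in young ethanol spots of 20 to 49 UMIs.

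With 2 libraries no test was made, and a 2-fold difference in both ethanol libraries was used. By that rule 8 of 2087 genes were higher in spots of at least 200 UMIs than in those of 20 to 49 (0.383%), and 39 were lower (1.87%). Genes entered by at least 20 UMIs in the richer band of each library. The top band held 89849 UMIs in all and the band of 20 to 49 held 295671 in young ethanol, so entry was easier through the latter. The counts therefore lean towards lower genes and are given as a description. The higher genes were Pdyn (4.54-fold in aged ethanol and 5.55-fold in young ethanol), Otp (3.14 and 3.46), Parm1 (2.60 and 5.42), Gpx3 (2.31 and 3.21), P4hb (2.14 and 2.91), Ssr4 (2.16 and 2.99), Id4 (2.11 and 2.82) and Snhg12 (2.42 and 2.35). P4hb encodes a protein disulfide isomerase, an enzyme that forms the disulfide bonds of secreted proteins. The lower genes included the GABA genes Gad2 (0.48 and 0.22) and Slc32a1 (0.47 and 0.35), Sst (0.24 and 0.39) and Ptgds (0.47 and 0.15). Ptgds was 926 CPM in spots of at least 200 UMIs and 1955 CPM in those of 20 to 49 in aged ethanol, and 1480 and 9987 CPM in young ethanol.

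Among the spots of at least 50 UMIs, which left the 2 ethanol libraries in the fit against other hypothalamic spots, the lineage factors had larger fitted changes. The log2 fold change was 2.17 for Otp, 3.45 for Sim1 and 3.39 for Pou3f2, and 2.89 for Caprin2 and 1.44 for Pcsk1. Mbp (0.39, adjusted p = 0.55) and Gm42418 (0.64, 0.6) were then not called, and Ptgds was at 0.78 (0.047).

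Oxytocin-led spots were set against vasopressin-led ones in the 2 libraries with at least 3 of each, so again no test was made. By the rule of 2-fold in both, 4 of 2784 genes were higher in oxytocin-led spots (0.144%) and 18 lower (0.647%). Genes entered by at least 20 UMIs in the richer set of each library. With 7 oxytocin-led and 32 vasopressin-led spots in young ethanol, that was reached more easily through the vasopressin-led set. The counts therefore lean towards lower genes and are given as a description. Hcrt was higher, with 1703 UMIs in oxytocin-led and 100 in vasopressin-led spots of aged ethanol (12.4-fold, counting interval 10.2 to 15.4) and 24 and 45 UMIs in those of young ethanol (2.75-fold, 1.60 to 4.60). A single aged ethanol spot, with 255 Oxt and 1 Avp UMI, held 1194 of the 1818 Hcrt UMIs of that library's neurosecretory spots. Without the spot richest in Hcrt of each library, chosen after its value was seen, the ratios were 3.94 and 2.23. At least 20 UMIs of Hcrt and Pmch were found in 9 of 18 oxytocin-led and 3 of 17 vasopressin-led spots of aged ethanol, and in 0 of 7 and 0 of 32 of young ethanol.

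**Figure D5:**
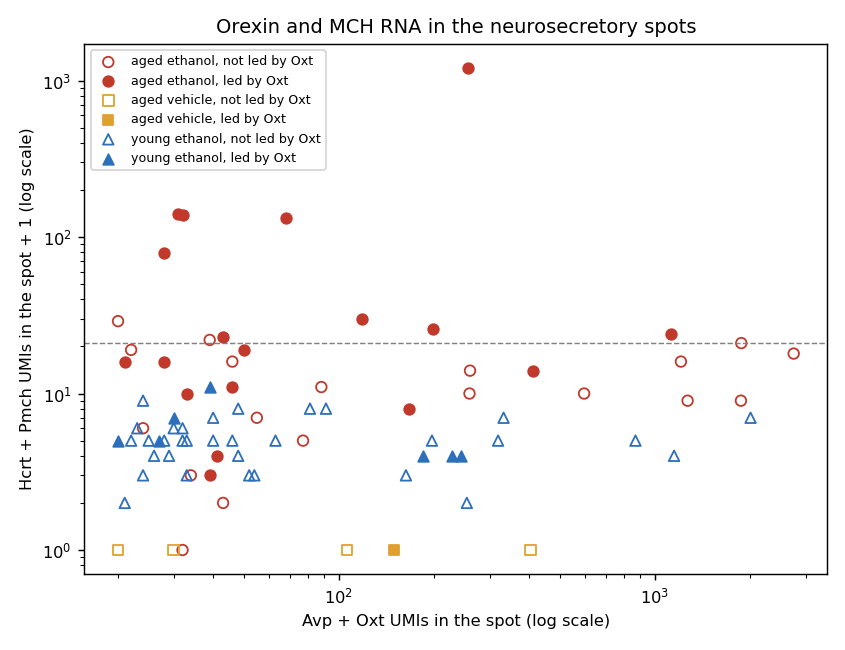
Hcrt and Pmch UMIs plus 1 (vertical, log scale) against Avp and Oxt UMIs (horizontal, log scale) of the 81 neurosecretory spots, filled where Oxt exceeded Avp, with a dashed line at 20 UMIs. All 12 spots at or above the line are from aged ethanol, and 9 of them are led by Oxt.

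Cck was lower in oxytocin-led spots, with 9 UMIs against 22 in vasopressin-led spots of aged ethanol (0.30-fold, 0.121 to 0.674) and 6 against 104 in young ethanol (0.30-fold, 0.107 to 0.669). Parm1 had 22 against 43 UMIs and 2 against 49 (0.37-fold and 0.21-fold). Igfbp5, an insulin-like growth factor binding protein gene, had 17 against 65 UMIs (0.19-fold, 0.105 to 0.329) and 2 against 34 (0.30-fold, 0.0352 to 1.18). Its interval in young ethanol includes equal levels. Prkce, a protein kinase C gene, was higher, with 30 against 7 UMIs and 15 against 28 (3.13-fold and 2.76-fold, with fewer oxytocin-led spots in young ethanol). Pdyn did not meet the rule, with 148 CPM in oxytocin-led and 418 CPM in vasopressin-led spots of aged ethanol and 93.7 and 114 CPM in those of young ethanol. Otp, at 119 and 185 CPM and at 147 and 101 CPM in the same order, differed in opposite directions in the 2 libraries. When the leading hormone had to be at least 2 times the other, 5 genes were higher in oxytocin-led spots and 12 lower, with the same lean towards lower genes. Hcrt, Igfbp5 and Parm1 met the rule there too, and Prkce was not among the genes that did. Cck did not reach 20 UMIs in the richer set of both libraries there, so it was not judged.

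Neurosecretory spots were compared between libraries by a size rule, a 2-fold ratio and a minimum of 50 UMIs in the richer library, since each group had 1 library. The young ethanol against vehicle comparison and the aged against young vehicle comparison could not be made, as the young vehicle library held 0 such spots. Between aged and young ethanol, 49 of 2321 genes were higher in aged spots (2.11%) and 9 lower (0.388%). The UMI totals of these spots were 683933 and 459180, so the minimum was reached more easily in aged ethanol. The counts therefore lean towards genes higher in aged spots. Hcrt had 1818 UMIs in aged and 69 in young ethanol spots (17.7-fold, counting interval 13.9 to 22.8). Igkc, an immunoglobulin light chain gene, had 158 UMIs against 1, a ratio of 106 (18.8 to 4216), and 75 of them were in 1 spot, while Ighm, the heavy chain gene, had 97 against 7 (9.30-fold). Npy, the neuropeptide Y gene, had 53 against 5 UMIs (7.12-fold). Mgp, the matrix Gla protein gene, had 237 against 40 (3.98-fold), and 212 of the 237 lay in 1 spot.

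Peptide genes described in magnocellular neurons met the rule in 5 of 9 cases between the ethanol libraries, with 4 higher and 1 lower in aged spots. Th was at 104 CPM in aged and 34.8 CPM in young ethanol spots (2.98-fold, 1.71 to 5.49), Gal at 117 and 47.9 CPM (2.44-fold), Cartpt at 338 and 148 CPM (2.28-fold) and Pdyn at 251 and 111 CPM (2.26-fold). Cck was at 46.8 and 240 CPM (0.20-fold, 0.13 to 0.29), and Pomc at 499 and 142 CPM (3.52-fold). None of 15 granin, 6 processing enzyme and 17 endoplasmic reticulum genes met the rule. Of 9 oligodendrocyte markers 3 were higher in aged spots and 0 lower (median log2 ratio 0.83), as were 3 and 0 of 4 lateral hypothalamic genes (1.18), and their part in these differences was not tested. Ptgds was at 1405 and 6986 CPM (0.20-fold), Malat1, a nuclear noncoding RNA gene, at 101 and 370 CPM (0.27-fold), Nrgn, a cortical marker, at 152 and 483 CPM (0.31-fold) and Dlgap1, a postsynaptic scaffold gene, at 45.3 and 118 CPM (0.39-fold). The median log2 ratio over all 2321 genes was 0.18.

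In the aged libraries the comparison rested on 683933 UMIs of 37 ethanol spots and 48111 UMIs of 5 vehicle spots. By the size rule 591 of 2312 genes were higher in ethanol spots (25.6%) and 91 lower (3.94%). The minimum of 50 UMIs was reached more easily in aged ethanol, which had the larger UMI total. These counts and those of the lists therefore lean towards genes higher in ethanol spots and are given as a description. A gene with 50 UMIs in aged ethanol would have 3.52 UMIs in aged vehicle at an equal level, and the counting interval left out 1 for 204 of the 591 and for 72 of the 91. Among the lower genes, Ptgds was at 0.17-fold, Malat1 and the kinase gene Sgk1 at 0.18-fold and S100b, a glial calcium binding gene, at 0.20-fold. All 9 oligodendrocyte markers were lower in ethanol spots and 13 of 15 granin and vesicle genes higher, with Scg2 at 740 and 166 CPM (4.45-fold, 2.24 to 10.4). Otp had 152 CPM in ethanol and 166 CPM in vehicle spots (0.91-fold, 0.45 to 2.17).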

How the data were processed

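Visium libraries of 4 sections were used. The authors deposited 1 matrix of raw UMI counts, 32285 genes by 11064 spots, made with Space Ranger (version 2.0.0 and build mm10 per the submitters' processing notes, 1.3.1 per the file headers). Barcode letters give the library. Members are spots with at least 500 UMIs and Avp + Oxt of at least 20. The members and the 31 gene lists were chosen with earlier results of these data known. Counts were summed per library and spot set and fitted with edgeR 4.0.16 in R 4.3.3 (TMM, filterByExpr, quasi-likelihood F test, library block, Benjamini-Hochberg over all genes tested, threshold 0.05), over the 3 libraries with at least 5 members. Avp and Oxt were not counted. Between single libraries, ratios of CPM have exact conditional binomial 95% intervals. P-values measure the spread between these 3 sections. DESeq2 1.42.0 and other alternatives were tried, and the scripts were tested on simulated data. The oxytocin-led test set out in the design was not made, since 2 libraries qualified. Doublets were not called, and no spot coordinates were used.

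Named genes were, per comparison, the 10 highest and 5 lowest called genes with the same direction in every library and at least 20 UMIs in the richer set, and up to 4 called members of each list with the largest fold change. Between libraries they were the 5 highest and 5 lowest past the size rule, with members of the processing, granin, endoplasmic reticulum and immediate early lists. Uncalled genes named in the text are list members. Pam, and genes outside the lists that are named in comparisons without a test, were chosen after their values were seen. In aged ethanol against aged vehicle, 62 genes with 0 UMIs in vehicle have no order, so no highest genes are listed. A gene that this rule names is not reported here. Genes that share a symbol (38 symbols) were kept apart by identifier.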

Additional observations from a re-analysis of the deposited data

How the results depend on the processing

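Spot sets of 1 section were paired through the library block, and without it the calls were 248 against other hypothalamic spots, 1800 against all other spots and 58 against orexin and MCH spots. For contrasts between libraries, no paired analysis was possible because each age and gavage had 1 library. Against other hypothalamic spots, 259 genes were called in all, and leaving out 1 library gave 50 to 432. There were 73 calls with a hormone threshold of 10 UMIs, 158 with 50 UMIs, 30 with hypothalamic spots of at least 20 marker UMIs and 39 (36 higher) by DESeq2. Against all other spots, 1400 calls became 155 to 1913 without 1 library and 455 by DESeq2. Against orexin and MCH spots, 86 became 13 to 81, 57 at a threshold of 10 UMIs, 33 by DESeq2 and, an alternative chosen after seeing the data, 154 without spots of at least 200 Ptgds UMIs. The causes were not tested, and settings that leave out a library or spots fit fewer samples. Of the 48 genes named against hypothalamic spots, 19 kept their call in every fit without 1 library, and 11 of those also by DESeq2, Pou3f2 and Tac2 among them. For the other comparisons these counts were 30 and 28 of 86, and 5 and 5 of 31. The limit set by the filter on low counts holds for Pou3f2 in these fits too, as DESeq2 used the same filter. By DESeq2, the adjusted p of Otp against hypothalamic spots was 0.0086, of Sim1 0.14 and of Foxp1 0.31.

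Directions reversed against all other spots for Slc18a2 (-8.74 without aged ethanol, 2.86 without young ethanol) and Hcrt (-0.74 and 3.20 in those fits, -0.22 without orexin and MCH rich spots). They also reversed at a threshold of 50 UMIs for Ptgds (-0.16), Igf2 (-0.25) and Prl (-1.20). The 682 genes past the size rule in aged ethanol against aged vehicle became 329 at a threshold of 50 UMIs and 2119 with at least 20 UMIs in the richer library, and the 58 of aged against young ethanol became 382. Neurosecretory spots numbered 134 at a threshold of 10 UMIs and 38 at 50, against 81. The alternatives for contrasts with young vehicle and the fits of oxytocin-led against vasopressin-led spots were not run, for lack of spots or libraries. Aged vehicle rests on 5 spots and 48111 UMIs, which limits every value of that library.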

Other observations

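Against all other spots, some genes that the comparisons above do not describe passed the test. Glp1r, the glucagon-like peptide 1 receptor gene, rose by 4.64 ± 0.49 on the log2 scale (adjusted p = 9.5e-19, edgeR), with 29.2, 20.8 and 19.6 CPM in the neurosecretory spots of aged ethanol, aged vehicle and young ethanol, against 0.653, 1.81 and 1.19 CPM. Ghrh, the growth hormone-releasing hormone gene, rose by 3.69 ± 0.42 (adjusted p = 2.7e-16) on 27, 10 and 3 UMIs. The imprinted gene Magel2 rose by 3.23 ± 0.37 (adjusted p = 6.8e-16) and Six6, a homeobox gene of the suprachiasmatic nucleus, by 5.14 ± 0.60 (2.3e-15). Meis2, against other hypothalamic spots, fell by 3.02 ± 0.48 (adjusted p = 1.9e-07), with 3, 0 and 4 UMIs against 82, 91 and 156, a call lost without young ethanol (0.071) or without aged ethanol (0.08). Nr4a2 had 0 UMIs in the neurosecretory spots against 5638 in all others, at least 14.8-fold lower by a floor of 3 UMIs over the whole set.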
